A study of Homo sapiens with 24 samples.

Results

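The comparison described here set METTL14 R298P against METTL14 D312A by the places where N6-methyladenosine (m6A) was called in mRNA. Its members were the 6 immunoprecipitated samples of these lines, 3 per line, of 12 immunoprecipitated and 24 samples in all. Both lines were HepG2, an established human liver cancer cell line, in which a lentiviral cassette that was selected with puromycin expressed METTL14 with the named substitution. The remaining lines of the series, used below only as a reference, were made in the same way and expressed wild-type METTL14 (WT) or EGFP. The labels call the 3 samples of a line biological replicates, and they do not state whether the cells' own METTL14 was removed, so both substituted proteins have to be taken as added to it. Poly(A) RNA was fragmented and precipitated with an anti-m6A antibody, and the deposited list of each library gives the positions of its peak summits. The 6 lists held 70647 summits of 155075 in the 12 lists. Summits within 100 nt of each other were merged into 25199 regions, of 34313 in the 12 lists, and a region was present in a library that had at least 1 summit in it. The question was whether the 2 substitutions act alike on the sites of methylation, which follows from the study's interest in how cancer mutations alter the specificity of the enzyme.

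m6A is written into mRNA by a complex in which METTL3 carries the catalytic site and METTL14 is the partner that holds the RNA substrate. The complex prefers adenosines in a short context whose core is GGAC, and its marks concentrate near stop codons and in 3′ untranslated regions. Reader proteins of the YTH family bind the mark and change the decay, translation or processing of the RNA. R298P replaces an arginine of METTL14 with proline, and D312A replaces an aspartate with alanine.

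R298P replicates 1 to 3 held 11960, 11590 and 13721 summits, and D312A replicates 1 to 3 held 12357, 8669 and 12350. D312A replicate 2 was the shortest of the 12 lists, and the line means of 12424 ± 1139 and 11125 ± 2127 summits (SD, n = 3 each) did not differ beyond the spread between libraries (two-sided exact permutation test, p = 0.6, where 3 against 3 libraries cannot go below 0.1). The sequencing depth of the lists is unknown. METTL14 itself, the expressed gene, held 10, 6 and 9 summits in R298P and 9, 9 and 3 in D312A, against 1 in each EGFP library, so all 6 libraries matched a METTL14 label. Of 12 hepatocyte and HepG2 markers, 11 held a summit in the 6 lists and TTR did not. Of 7 fibroblast and stellate markers 1 held a summit (PDGFRB), of 6 blood and macrophage markers 2 (CD68 and LYZ) and of 4 endothelial markers 2 (CDH5 and PECAM1). COL1A1, PTPRC and VWF were among the markers without a summit. The markers of each of these kinds together held at most 3 summits per library. The lists also differed in a way that did not follow the line and followed the replicate number only in part. Genes of secreted liver proteins, which are very abundant RNAs in these cells, held 120, 23 and 29 summits in R298P and 120, 126 and 9 in D312A. Cytosolic ribosomal protein genes held 80, 15 and 23 summits in R298P and 67, 70 and 14 in D312A, with the same libraries high. The WT libraries gave 145, 45 and 40 and the EGFP libraries 84, 13 and 126 summits in genes of secreted proteins. Replicate 1 was thus high in every line, and D312A replicate 2 and EGFP replicate 3 were high besides. The numbers were high in 2 of the D312A and 1 of the R298P libraries, and the part of this in the results below was not tested. Names of the lists set replicate 1 of every line apart from replicates 2 and 3, and peak names in R298P replicate 2 alone carry a version mark.

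A few regions that separated the lines lie inside the promoter windows of the RefSeq sequence table (GRCh38.p14), and these show the sequence at the middle of such a region. Each row below gives 30 bases around the middle of the region on the strand of the host gene, 5′ to 3′, with GGAC, the core of the preferred context, in capitals. The first 3 were present in 3 of 3 R298P and 0 of 3 D312A libraries and in 0 of 6 WT and EGFP libraries, and the last 2 in 3 of 3 D312A and 0 of 3 R298P libraries.
SIRT2, R298P only, chr19:38899564-38899593, minus strand: gtgacgGGACacagtggttggtgacgGGAC
NUP153, R298P only, chr6:17706827-17706856, minus strand: gacgacgacgacgacggcggcggggcgggc
PPP1R12A, R298P only, chr12:79934998-79935027, minus strand: atagaaacattcacacaccccctgcctccc
CC2D1A, D312A only, chr19:13906323-13906352, plus strand: ggggcgccgacgaggagtgcaGGACtcagg
SIPA1L1, D312A only, chr14:71320495-71320524, plus strand: gagcgaaaagtcagtgcagcgccgagtccc
SIRT2 encodes a deacetylase, NUP153 a nuclear pore protein, PPP1R12A the targeting subunit of myosin phosphatase, CC2D1A a scaffold and repressor protein and SIPA1L1 a Rap GTPase-activating protein. Their midpoints lay 39, 83 and 447 nt after the annotated gene start for the R298P regions and 137 and 34 nt for the D312A regions. GGAC was found in 2 of the 13 R298P-only and 1 of the 3 D312A-only regions read in this way, and its absence says only that these letters are not in these 30 bases. The lists carry no strand, and the windows that gave the bases of SIRT2, NUP153 and CC2D1A are those of the neighbouring genes NFKBIB, NUP153-AS1 and BRME1. The regions of SIRT2, NUP153, PPP1R12A and SIPA1L1 lost their call with lists of equal length, and that of CC2D1A lost it with summits merged within 200 nt.

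Of the 25199 regions, 382 were present in 3 of 3 R298P and 0 of 3 D312A libraries, which is 1.52%, and 97 were present in 3 of 3 D312A and 0 of 3 R298P libraries, which is 0.385%. A further 3882 regions were present in all 6 libraries. Of the 2887 regions held by exactly 3 of the 6 libraries, 13.2% fell wholly into R298P and 3.36% wholly into D312A. Each line is 1 of the 20 ways to take 3 of 6 libraries, and the D312A share lay below 1 in 20. The lists differ in length, and the shares were not tested. With each list cut to the length of the shortest, 8669 summits, by the deposited value, 294 of 18879 regions were R298P only (1.56%) and 116 were D312A only (0.614%). The excess of R298P-only regions was smallest without D312A replicate 2. Without that library, 448 regions were R298P only and 397 were D312A only, and 438 and 417 with lists of equal length. Leaving out D312A replicate 1 at equal length gave 470 and 381, and leaving out D312A replicate 3 gave 443 and 287. With all summits, leaving out any library but D312A replicate 2 left between 631 and 856 R298P-only and between 183 and 271 D312A-only regions. No single region can pass a test with 3 against 3 libraries.

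**Figure D1:**
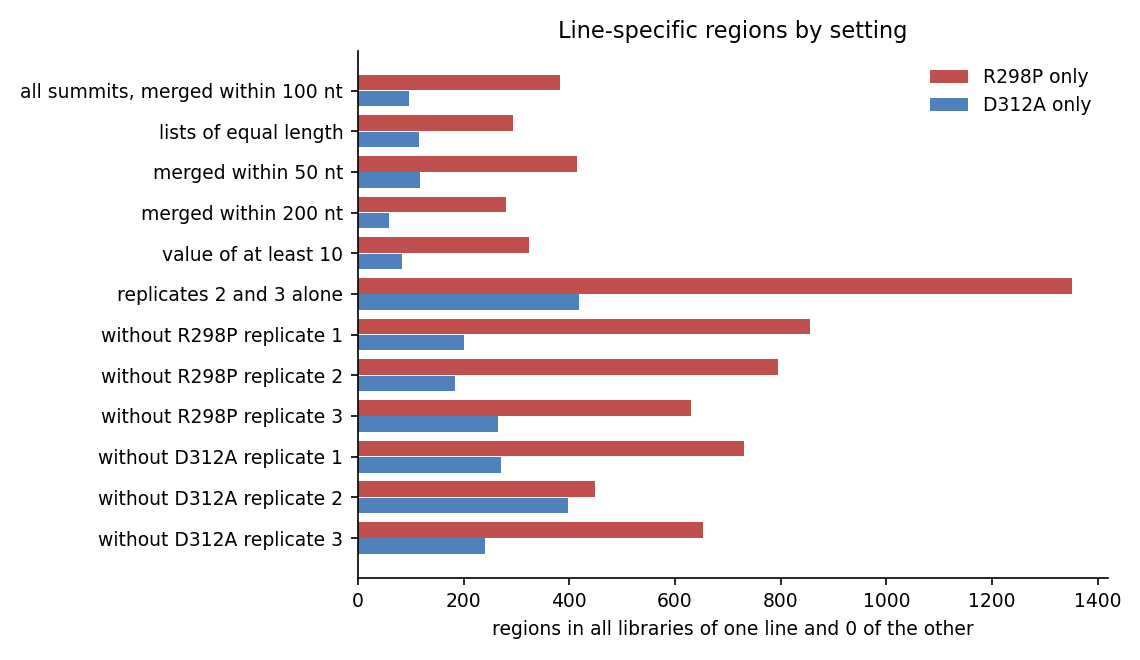
Number of regions present in all libraries of one line and in 0 of the other (horizontal axis), for R298P (red) and D312A (blue), under each setting (vertical axis). The bars for all summits are 382 and 97 long, and without D312A replicate 2 they are 448 and 397, the most even pair.

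The 2 sets differed in how often they were found in the WT and EGFP libraries, which the selection did not use. Here a region counted as present in a reference library that had a summit within 100 nt of it. An R298P-only region was present in 2.15 of the 6 reference libraries on average, and a D312A-only region in 4.12. In all, 71 R298P-only regions (18.6%) were present in 0 reference libraries and 9 (2.36%) in 6, whereas 0 D312A-only regions were present in 0 reference libraries and 26 (26.8%) in 6. Regions present in all 6 libraries of the comparison were found in 5.77 reference libraries on average. WT and EGFP contributed alike, with 1.12 of 3 WT and 1.03 of 3 EGFP libraries for R298P-only regions and 2.01 and 2.11 for D312A-only regions. The order was the same under every other setting examined, with means between 1.84 and 2.99 for R298P-only and between 3.22 and 4.71 for D312A-only regions when 1 library was left out. The means were closest without D312A replicate 3, at 2.89 and 3.22. Without D312A replicate 2 they were 2.34 and 3.32. With lists of equal length they were 1.55 and 3.59. The counts at the ends moved more than the means. R298P-only regions in 0 reference libraries numbered 77, 74 and 77 without D312A replicate 1, 2 and 3, of 731, 448 and 654, and 111 of 294 with lists of equal length. D312A-only regions in 0 reference libraries numbered 23, 25 and 17 without D312A replicate 1, 2 and 3, of 271, 397 and 240, and 8 of 116 with lists of equal length. Regions are not replicates, so no p-value is given for these means.

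**Figure D2:**
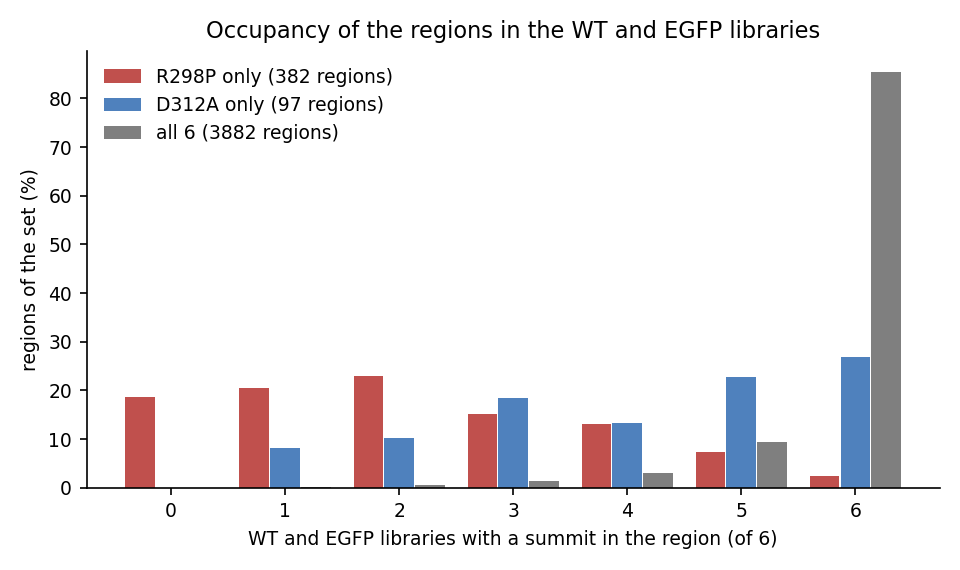
Percent of the regions of each set (vertical axis) by the number of the 6 WT and EGFP libraries that hold a summit there (horizontal axis), for 382 R298P-only (red), 97 D312A-only (blue) and 3882 regions present in all 6 libraries (grey). The highest red bar, 23.0%, stands at 2 libraries, and the highest blue bar, 26.8%, at 6. A summit within 100 nt of the region counts as held there.

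The 26 D312A-only regions found in all 6 reference libraries were present in 9 of 9 libraries outside the R298P line. They lay in the genes of FEM1B, a substrate receptor of a cullin ubiquitin ligase, TBC1D16, a regulator of Rab GTPases, TAF5L, a subunit of histone acetyltransferase complexes, LTBR, the lymphotoxin beta receptor, MLX, a transcription factor of the glucose response, and TEAD4, the DNA-binding partner of YAP, among others. In most of them R298P had a summit close by, since 14 had one within 200 nt and 5 at 201 to 500 nt. The other 7 had none within 500 nt. MLX was one of these. Its region (chromosome 17, 42571683 to 42571689) had deposited values, on a −log10 scale, of 17.6, 21.5 and 15.2 in D312A replicates 1 to 3. MLX held 1 summit in each of the 9 libraries of D312A, WT and EGFP and 0 in each R298P library, so the lines did not overlap. The reverse pattern, 3 R298P and 6 reference libraries but 0 D312A libraries, was found in 9 regions, among them those of IDE, the insulin-degrading enzyme (chromosome 10, 92573207 to 92573231), GALM, a galactose mutarotase (chromosome 2, 38734620 to 38734626), and ATP7A, a copper transporter (chromosome X, 77988436 to 77988454). Of these 9, 6 had no D312A summit within 500 nt. With lists of equal length, 5 of the 9 and 16 of the 26 kept their call, and the ATP7A region lost it. The order of these counts, 26 against 9, turned without D312A replicate 1 and without D312A replicate 3. Regions in all 6 reference libraries were 42 of 271 D312A-only and 79 of 731 R298P-only regions without D312A replicate 1, and 34 of 240 and 61 of 654 without D312A replicate 3.

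The 71 R298P-only regions absent from all reference libraries included 26 with no D312A summit within 500 nt and 25 with one within 200 nt. MGA, a MAX-binding repressor of the MYC network, held one of the isolated regions (chromosome 15, 41736521 to 41736581), with values of 14.9, 17.9 and 19.9 in R298P replicates 1 to 3. KANSL3, a subunit of the NSL acetyltransferase complex, held another (chromosome 2, 96593539 to 96593542), with values of 18.0, 13.8 and 21.9. A region of UGT2B7, a liver glucuronosyltransferase (chromosome 4, 69096515 to 69096536), was weaker at 11.9, 8.06 and 12.9, and lay 50326 nt from the next D312A summit. All 3 regions had a summit in every R298P library and in none of the other 9. With lists of equal length, the regions of MGA and KANSL3 kept their call and that of UGT2B7 lost it, as 37 of the 71 kept theirs.

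Regions that ranked best by value in all 3 libraries of their line were mostly neighbours of a summit in the other line. The 10 best R298P-only regions assigned to a gene lay between 101 and 273 nt from a D312A summit. They were in EDA2R, a receptor of the TNF receptor family, SECISBP2L, DCUN1D3, a factor for cullin neddylation, TEX2, LOC101927060, IDE, ZNF561, PCNX3, NCOA5, a nuclear receptor coregulator, and WDR82, a subunit of SETD1 methyltransferase complexes. The region of EDA2R (chromosome X, 66597925 to 66597932) had values of 32.7, 29.8 and 44.9 in R298P replicates 1 to 3, and the nearest D312A summit was 101 nt away, 1 nt beyond the merging distance. That of TEX2 (chromosome 17, 64212713 to 64212715) had values of 29.2, 36.1 and 43.0 and was absent from the 6 reference libraries, with a D312A summit 214 nt away. Of the 10 best D312A-only regions, 7 lay within 152 nt of an R298P summit. The other 3 were in MED16, a Mediator subunit, RHBDF2, an inactive rhomboid protein, and MLX. The MED16 region (chromosome 19, 867983 to 867987) had values of 15.5, 18.8 and 16.9 in D312A replicates 1 to 3, and was present in 0 of 3 WT and 3 of 3 EGFP libraries. The RHBDF2 region (chromosome 17, 76471497 to 76471519) had values of 15.5, 15.6 and 15.8 and was present in 5 reference libraries. Over the whole sets, the nearest summit of the other line was at a median of 364.5 nt for R298P-only and 231 nt for D312A-only regions, and 172 and 36 regions had none within 500 nt.

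In 14 places an R298P-only region lay within 500 nt of a D312A-only region, at a median gap of 138.5 nt. In 12 of the 14 the D312A site was present in more of the 6 reference libraries, in 0 the R298P site was, and in 2, WDR82 and ING2, both were present in the same number. The means were 4.93 reference libraries at the D312A sites and 1.93 at the R298P sites. Since a reference summit within 100 nt of a site counted, the same summit can count at both sites of a close pair. In TEAD4 each WT library held 1 summit, and both sites counted 3 WT libraries. In TAF5L the D312A site (chromosome 1, 229594775 to 229594788) was present in all 6 reference libraries and the R298P site, 135 nt away (229594923 to 229594926), in 0. Values were 16.7, 20.9 and 30.9 in D312A and 18.8, 20.4 and 29.7 in R298P. SECISBP2L had sites 104 nt apart that were present in 6 and 3 reference libraries, and BCL9L, a coactivator of beta-catenin, had sites 263 nt apart that were present in 5 and 0. TAF5L and TEAD4 kept about the same number of summits in both lines, with 4, 4 and 4 against 4, 4 and 5 for TAF5L and 1 in every library of both lines for TEAD4. In these genes the lines differed by where the summit stood and not by how many there were. With summits merged within 200 nt, both sites of TAF5L and both of TEAD4 lost their call.

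**Figure D3:**
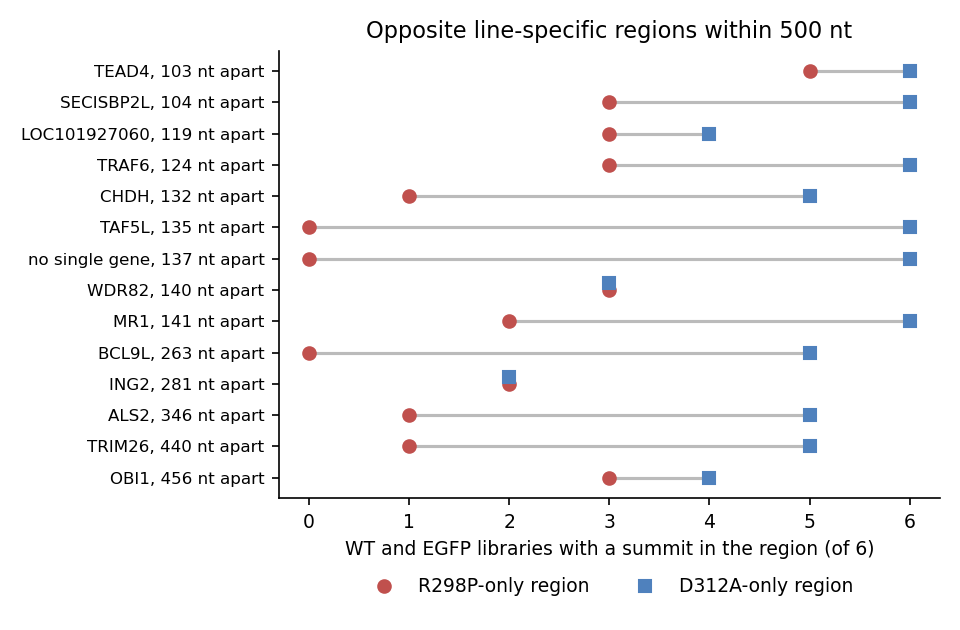
The 14 places where an R298P-only region (red circles) lies within 500 nt of a D312A-only region (blue squares), each named by its gene and the gap in nt (vertical axis), with the number of the 6 WT and EGFP libraries that hold a summit in the region (horizontal axis). The square lies to the right of the circle in 12 places and at the same number in WDR82 and ING2. A summit within 100 nt of the region counts as held there, so the same summit can count for both.

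Whole libraries were compared with the same reference. Regions present in all 6 WT and EGFP libraries, here called reference regions, numbered 5758. A summit stood in or within 100 nt of 83.1, 83.3 and 90.6% of them in R298P and 90.7, 78.6 and 91.8% in D312A. The lines thus overlapped (exact permutation test, two-sided, p = 0.8). With lists of equal length the shares were 72.2, 72.6 and 76.3% in R298P and 78.1, 78.6 and 80.6% in D312A, with no overlap (difference -5.41 percentage points, exact permutation p = 0.1, the smallest possible). Summits with no WT or EGFP summit within 100 nt made up 11.3, 12.3 and 14.9% of the R298P lists and 6.51, 7.51 and 10.6% of the D312A lists. All 3 R298P libraries were above all 3 D312A libraries, and the difference of 4.60 percentage points was 12.8 ± 1.85 against 8.22 ± 2.15% (SD, n = 3, exact permutation p = 0.1). With lists of equal length the difference was 2.67 percentage points and the lines overlapped (exact permutation p = 0.2). Of these summits away from the reference, 30.6, 29.1 and 23.5% had a counterpart in another R298P library, and 10.7, 10.8 and 7.46% of those of D312A had one in another D312A library. A counterpart in the other line was found for 17.6, 16.2 and 12.4% of those of R298P and for 30.0, 19.5 and 17.6% of those of D312A. For D312A the shares matched in R298P libraries were above those in its own line, but the chances of a match were unequal. A library had 2 others in its own line and 3 in the other line. Summits away from the reference numbered 1348, 1428 and 2040 in R298P and 804, 651 and 1313 in D312A. The part of these pools in the shares was not tested. Between 95 and 102 of the R298P summits recurred in both other R298P libraries and 2 of the D312A summits in both other D312A libraries. Within reference regions that kept a summit, it stood over 50 nt from the reference position in 8.09, 5.36 and 5.79% for R298P and in 5.04, 3.93 and 3.61% for D312A, again without overlap (exact permutation p = 0.1). The median distance from the reference position, 7.5, 5.5 and 6.0 nt in R298P and 6.0, 5.0 and 5.0 nt in D312A, overlapped between the lines (exact permutation p = 0.3), as did the mean distance (exact permutation p = 0.2).

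**Figure D4:**
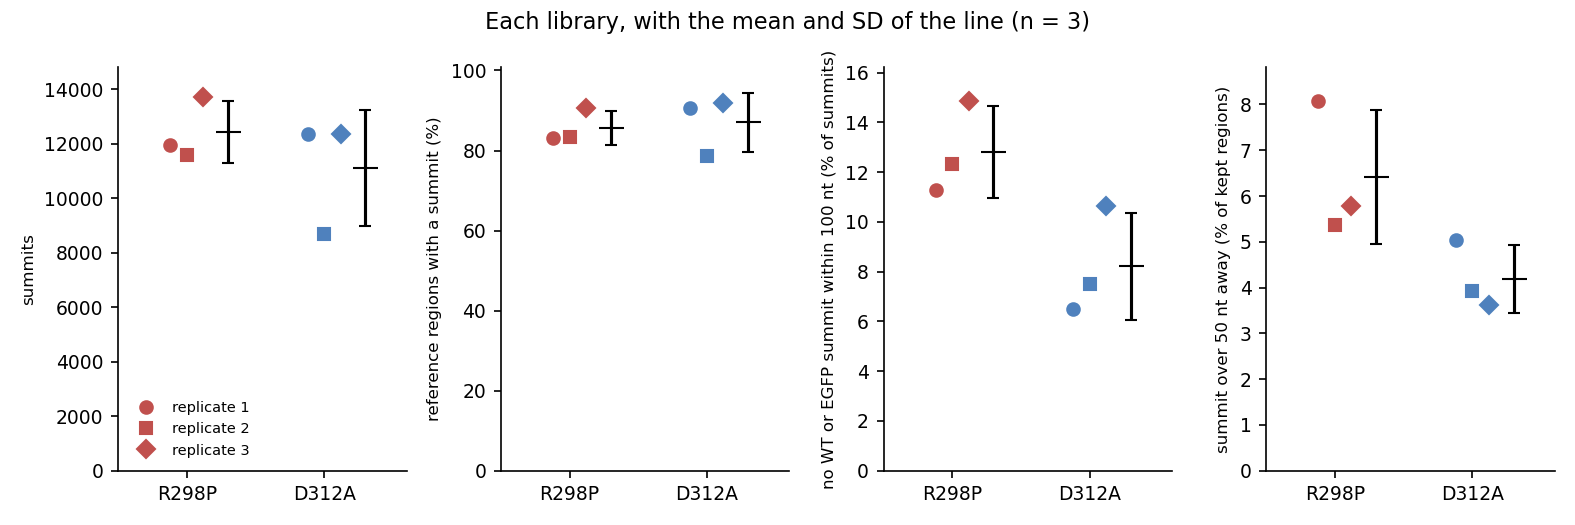
Per library (points, shaped by replicate) for R298P (red) and D312A (blue): number of summits, percent of the 5758 reference regions with a summit, percent of summits with no WT or EGFP summit within 100 nt, and percent of kept reference regions whose summit stood over 50 nt away. Bars are the mean and SD of 3 libraries. The lines overlap in the first 2 panels and not in the last 2. A summit within 100 nt of a reference region counts as in it.

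Sharing of summits between single libraries gave the background to these differences. On average 60.1% of summits were shared within 100 nt between an R298P and a D312A library (9 pairs), 62.2% between R298P libraries (3 pairs) and 61.5% between D312A libraries (3 pairs). The pairs between lines ranged from 57.2 to 66.5%, which covers the range within both lines. At equal list length they averaged 58.7% and ranged from 55.5 to 63.1%, while R298P pairs averaged 61.9% and reached 64.2%, and D312A pairs averaged 60.3%.

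Gene by gene, 8839 genes held a summit in the 6 lists. In 84 (0.95%) a summit was present in 3 of 3 R298P and 0 of 3 D312A libraries, and in 23 (0.26%) the reverse held. Without D312A replicate 2 these counts were 100 and 102. With lists of equal length they were 54 and 32. WASHC4, a subunit of the endosomal WASH complex, held 2, 2 and 2 summits in R298P, 0 in each D312A and WT library and 1, 0 and 1 in EGFP. CDC42SE2, an effector of the GTPase CDC42, held 2, 2 and 2 in R298P and 0 in each D312A library, but 2, 2 and 1 in WT and 1 in each EGFP library. ELK1, a transcription factor downstream of ERK, held 2, 1 and 2 in R298P and 0 in each D312A library, and DNAJB4 and ATP2A2, a heat shock cochaperone and a calcium pump, gave 2, 1 and 2 and 1, 2 and 2 against 0. In the other direction, ITPR3, an inositol trisphosphate receptor, MED16 and CNNM3 held 2, 1 and 1 summits in D312A and 0 in each R298P library. ZMAT3, an RNA-binding protein induced by p53, held 1 in each D312A and 0 in each R298P library. ZMAT3 also held 1 in every EGFP library and 0, 1 and 3 in WT.

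Among 4214 genes with a mean of at least 1 summit over the 6 libraries, the mean number was higher in R298P for 1916, higher in D312A for 1097 and equal for 1201, with a median difference of 0. With lists of equal length the split was 1539 against 1550. In 98 genes (2.33%) every R298P library held more summits than every D312A library, and in 23 (0.546%) every D312A library held more. Without D312A replicate 2 these counts were 132 and 134. limma on log2(summits + 1) gave an adjusted p under 0.05 (Benjamini-Hochberg) for 28 genes with more summits in R298P (0.664%) and 9 with more in D312A (0.214%). In 27 of the 28 and 9 of the 9, all libraries of a line held the same number, so that no spread was seen and the test rested on the moderated variance. In 25 and 9 of them the difference was 1 summit. Restricted to genes whose number varied within a line, limma passed 0 and 0 of 3620 genes (118 and 25 had an unadjusted p under 0.05). At a mean of at least 3 summits it also passed 0 and 0, of 729 genes (44 and 8 unadjusted). The called genes are therefore given by their values alone.

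MAST4, a microtubule-associated kinase, was the called gene with spread between libraries. It held 4, 4 and 5 summits in R298P and 2, 2 and 2 in D312A, a log2 difference of 0.82 with a standard error of 0.084 (limma, adjusted p = 0.0368), and 3, 2 and 5 in WT and 3, 4 and 6 in EGFP. The call was lost among genes with spread (limma, adjusted p = 0.815), at a mean of at least 3 summits (0.374), with the replicate block (0.265), with lists of equal length (0.779) and without D312A replicate 1, 2 or 3 (0.125, 0.142 and 0.115). It was also lost on a square root scale (limma, adjusted p = 0.0587), with all 12 libraries in the fit (0.560) and without R298P replicate 1 or 2 (0.0670 and 0.0746). Over all settings its adjusted p lay between 0.000228 and 0.815. Its difference fell from 2.33 to 0.667 summits with lists of equal length. MGA had the widest gap between lines that did not overlap, with 9, 11 and 9 summits in R298P and 6, 3 and 7 in D312A, but it missed the threshold (limma, adjusted p = 0.751). Its WT and EGFP libraries held between 6 and 10. The genes KAT6B, a histone acetyltransferase, with 5, 7 and 7 against 4, 2 and 4, and RPTOR, the mTORC1 scaffold, with 5, 6 and 6 against 3, 3 and 4, were named after their values were seen. On the D312A side, SPRED2, an inhibitor of Ras and ERK signalling, held 3 summits in each D312A and 2 in each R298P library. SCAF1 held 6 against 5, and WDR6 and PURA each held 5 against 4, in every library. SON, a splicing factor of nuclear speckles, held 7, 7 and 7 in D312A and 5, 4 and 6 in R298P, and between 6 and 9 in WT and EGFP (limma, adjusted p = 0.751).

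**Figure D5:**
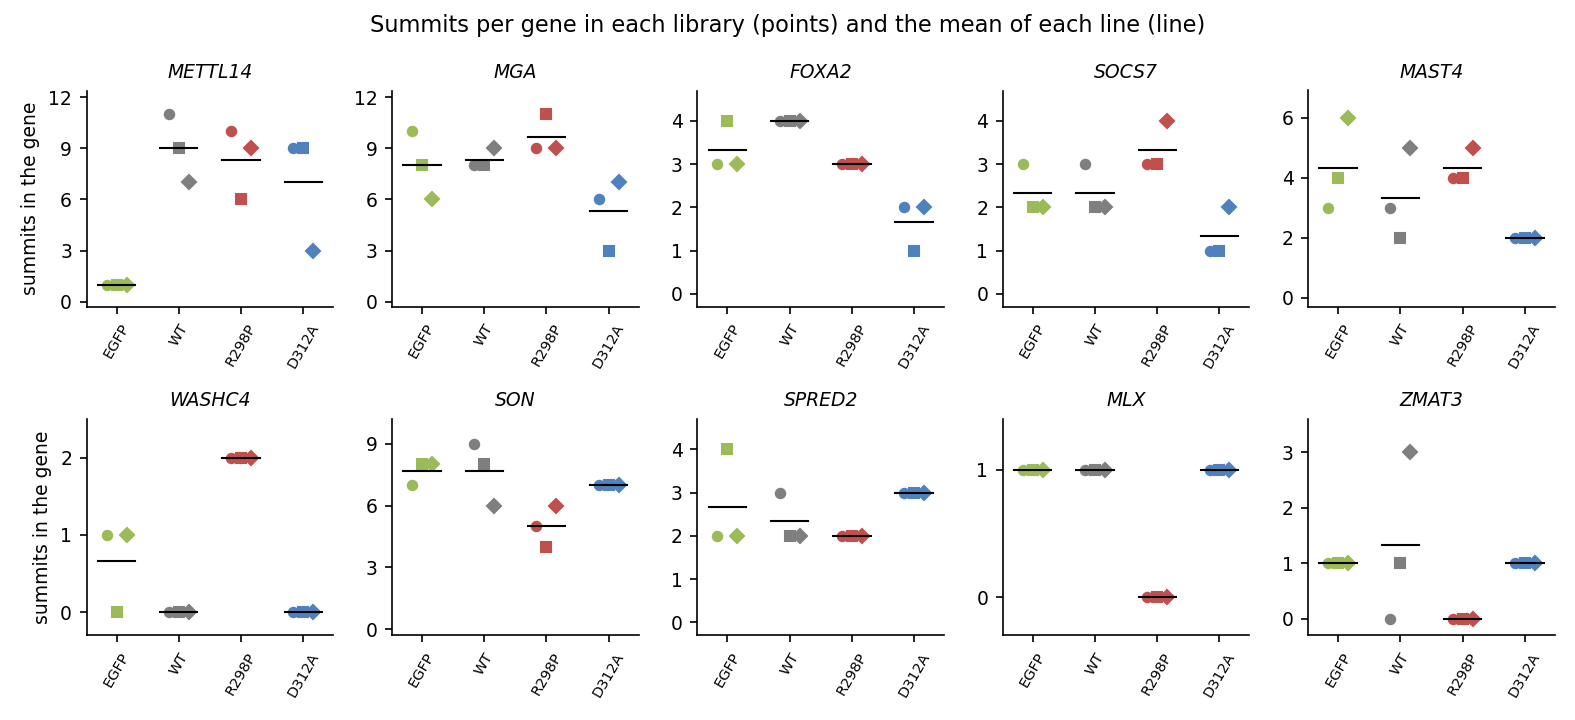
Summits per gene in each library (points, circle, square and diamond for replicates 1 to 3) and the mean of the line (black), for EGFP, WT, R298P and D312A, each panel 1 gene with its own vertical axis. R298P lies above D312A in every library for MGA, FOXA2, SOCS7, MAST4 and WASHC4, and below it for SON, SPRED2, MLX and ZMAT3, while METTL14 overlaps between them.

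In every gene of the methylation machinery with a summit the lines overlapped in summit number. Of 8 writer genes 7 held a summit and 0 held an R298P-only or D312A-only region, and METTL3 held 1, 0 and 2 summits in R298P and 0, 0 and 1 in D312A. RBM15, an adaptor that brings the complex to its RNAs, held 4, 5 and 4 against 4, 3 and 4, and VIRMA, the scaffold subunit, 1, 2 and 2 against 1, 1 and 1. Of 16 reader and eraser genes 15 held a summit, and PRRC2A, a reader, was the 1 with an R298P-only region. Over all genes 3.75% held an R298P-only and 0.963% a D312A-only region, so few were to be found in lists this small. YTHDF1 held 4, 3 and 4 summits in R298P and 5, 3 and 5 in D312A, YTHDF2 3, 3 and 3 against 2, 2 and 4, and YTHDF3 5, 4 and 4 against 5, 5 and 5. FTO, an m6A eraser, held 1, 0 and 1 against 0 in each D312A library.

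Over all genes with a region, 331 of 8829 (3.75%) held an R298P-only region and 85 (0.963%) a D312A-only region, and 14 held both. Zinc finger genes of the ZNF series, mostly repressors of transcription, held R298P-only regions in 27 of 349 genes with a summit (7.74%) and D312A-only regions in 0. Without D312A replicate 2 the ZNF counts were 27 and 11, where 387 and 344 genes of all kinds held such regions, and with lists of equal length they were 21 and 1 beside 248 and 103. ZNF561, ZNF114, ZNF44 and ZNF514 ranked best. ZNF514 held 3, 3 and 5 summits in R298P and 2, 1 and 3 in D312A, with 2 R298P-only regions. ZNF genes have near-identical relatives, so the gene that a summit came from is uncertain. limma passed 1 and 0 of 221 ZNF genes tested, and their median difference was 0.333 summits beside 0 for all genes (0 with lists of equal length).

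Of 19 liver transcription factor genes with a summit, 4 held an R298P-only region and 0 a D312A-only region, beside 3.75 and 0.963% of all genes. The counts were 2 and 0 with lists of equal length and 4 and 2 without D312A replicate 2. The 4 were FOXA2, ONECUT1, ONECUT2 and PPARA. FOXA2 held 3 summits in each R298P library and 2, 1 and 2 in D312A. Its region (chromosome 20, 22582001 to 22582008) was also present in 3 reference libraries and lost its call with lists of equal length. ONECUT2 held 3, 6 and 6 against 4, 2 and 2, and PPARA, the fatty acid receptor of liver, 5, 5 and 9 against 5, 1 and 6, so these overlapped between lines. Among 28 histone methyltransferase and acetyltransferase genes, KANSL1, KANSL3, KAT6B, KMT2A and SETD2 held R298P-only regions and KMT2B and KMT2C D312A-only regions, 17.9 and 7.14% beside 3.75 and 0.963% of all genes. These counts of 5 and 2 were 6 and 3 with lists of equal length and 5 and 5 without D312A replicate 2. Genes with more summits have more places for such a region, and the shares of this and the other gene lists were not adjusted for this. The 28 genes held 92, 101 and 114 summits in R298P and 92, 66 and 101 in D312A. The 19 liver factors held 48, 61 and 61 and 51, 32 and 44. All 8839 genes held 10767, 10351 and 12198 and 11117, 7757 and 10999. KMT2C, a histone H3 lysine methyltransferase, was the 1 gene with more than 1 D312A-only region, where 18 genes had more than 1 R298P-only region.

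Signalling genes were split, and the counts of genes below stand beside 3.75% of all genes with an R298P-only and 0.963% with a D312A-only region. In the Wnt pathway BCL9L, FZD3 and LRP6, a coactivator and receptors, held R298P-only regions and BCL9L also a D312A-only one, of 31 genes with a summit. The Wnt counts of 3 and 1 were 4 and 1 with lists of equal length and 4 and 3 without D312A replicate 2. FZD3 held 2 summits in every library of R298P, WT and EGFP and 1, 0 and 1 in D312A. Of 24 TGF-beta and BMP pathway genes with a summit, SMAD1 and SMAD3, effectors of the BMP and TGF-beta receptors, held R298P-only regions. Their counts of 2 and 0 were 0 and 1 with lists of equal length, where both SMAD regions lost their call, and 2 and 1 without D312A replicate 2. SMAD1 held 3 summits in each R298P library and 2, 1 and 2 in D312A. IGF1R, a receptor tyrosine kinase, held 9, 7 and 8 against 7, 5 and 7 and had 1 R298P-only region. Of 23 AKT, mTOR and insulin signalling genes with a summit, it alone had a line-specific region. These counts of 1 and 0 were 2 and 0 with lists of equal length and 1 and 1 without D312A replicate 2. In the Hippo pathway (19 genes with a summit) NF2, the tumour suppressor merlin, held 1 summit in each R298P and 0 in each D312A library. Its R298P-only region had a value of 5.94 in R298P replicate 3 and lost its call with lists of equal length. TEAD4 had a region of each kind. The Hippo counts of 2 and 1 were 1 and 2 with lists of equal length and 3 and 3 without D312A replicate 2. Of feedback inhibitors (20 with a summit), SOCS7 had an R298P-only region and held 3, 3 and 4 summits against 1, 1 and 2, and SPRED2 had a D312A-only region. These counts of 1 and 1 were the same with lists of equal length and were 2 and 3 without D312A replicate 2. Of p53 targets (17 with a summit), MDM4, an inhibitor of p53, had an R298P-only region and held 2, 2 and 3 summits against 1 in each D312A, WT and EGFP library. ZMAT3 had a D312A-only region, which lost its call with lists of equal length. Lists with 0 genes holding either kind of region were lipid and cholesterol genes (20 with a summit), mitotic genes (15), KLF and AP-1 factors (26), the CCR4-NOT complex (14), nuclear lncRNAs (6), USP genes (38) and cytosolic ribosomal protein genes (51). With so small a share among all genes, 0 in lists of this size is no result about their members. Of secreted liver proteins (20 with a summit) F5 and HP had R298P-only regions, and of drug and bile acid metabolism (8) UGT2B7 did. The regions of F5 and UGT2B7 lost their call with lists of equal length, and that of HP kept it. By summit number, 13 of the 18 secreted protein genes tested had a higher mean in D312A and 4 in R298P. Of the MYC network (11) MGA had R298P-only regions and MLX a D312A-only region, and of SR splicing factors (12) SON had a D312A-only region. The SON region lost its call with lists of equal length.

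The shares of regions by position along the gene also differed between the sets, and were not tested since regions are not replicates. Of regions in a gene of known strand, 31.1% of 289 R298P-only, 46.5% of 71 D312A-only and 43.4% of 2953 regions in all 6 libraries lay in the last 10% of the span. In the first 10% lay 15.6, 9.86 and 7.59%. Spans include introns and do not give stop codons or untranslated regions. Where a summit and 50 nt on each side fitted within a promoter window, GGAC on the strand of the host gene was found in 47.9, 46.8 and 44.2% of 117, 141 and 147 such summits in R298P and in 49.2, 49.4 and 52.4% of 120, 77 and 105 in D312A, against 30.8% of the middle 101 bases of all 35116 windows. All D312A libraries lay above all R298P libraries, by 50.3 ± 1.80 against 46.3 ± 1.88% (SD, n = 3, exact permutation test, two-sided, p = 0.1), and the G and C content of these stretches was 66.9% in D312A and 67.1% in R298P.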

How the data were processed

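Groups and replicate numbers came from the sample titles. The authors deposited 1 summit list per immunoprecipitated library, called per library, whose last column was read from its range as a −log10 p or q value. The sources used here do not say which, nor the settings of the tools. The submitters' processing notes name the build hg38 and, without roles, the peak caller MACS2 2.1.2, the aligner STAR 2.7.9a, HOMER 4.9 and bedtools 2.17.0, among other tools. Input libraries were not used here, so differences in RNA amount cannot be told from differences in methylation. A deposited table of inputs was not used, since its 18 columns of per-library values match no sample label.

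Summits (1-based, hg38) were merged within 100 nt and ranked within a list by the deposited value. Values were not compared between lists, except that 1 alternative setting kept summits with a value of at least 10 in every list. A summit was named after the only protein-coding RefSeq gene (GRCh38.p14) whose span holds it, else the only lncRNA gene. Single values per library were compared with two-sided exact permutation tests over 20 assignments. Summits per gene were tested with limma 3.58.1 in R 4.3.3 on log2(summits + 1), for genes with a mean of at least 1, at an adjusted p of 0.05. In simulated data with 3-fold changes in genes with a mean of at least 3 summits, limma recovered changed genes. Unchanged genes without spread between replicates passed too. Differences of 1 summit, as in most of the calls, were not simulated. Other steps used Python 3.11.15, numpy 2.4.6, pandas 2.3.3 and matplotlib 3.10.9.

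Named genes were the 10 best regions per line by their worst rank, the 10 largest differences among limma calls, METTL14 with writers, readers and erasers, the 5 genes with most line-specific regions, the 5 genes present in 3 against 0 libraries with most summits, and up to 4 members of each list with such a region. The comparison, its members and the gene lists were chosen with earlier results of these data known. Alternatives changed the merging distance, list length, value threshold, filter, scale, gene assignment, block and libraries. The restriction to genes with spread, the reference libraries under each setting, the counts without overlap under other settings and the GGAC shares were chosen after seeing the data.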

Additional observations from a re-analysis of the deposited data

How the results depend on the processing

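Regions called R298P only or D312A only, 382 and 97, were within 1.5 times of these counts with summits merged within 50 nt, with values of at least 10 and with lists of equal length. D312A-only regions fell to 58 with summits merged within 200 nt, and R298P-only regions to 178 with the 5000 best summits. Without a summit of the other line within 500 nt they were 172 and 36, and in replicates 2 and 3 alone 1352 and 418. Leaving out 1 library gave 448 to 856 R298P-only and 183 to 397 D312A-only regions, the most even pair without D312A replicate 2. Genes present in 3 against 0 libraries, 84 and 23, were 54 and 32 with lists of equal length, and 100 to 201 and 40 to 102 without 1 library. The difference in summits per library turned to -397 in replicate 1 alone, and that in reference regions kept, -1.38, ranged from -5.59 to 1.01 without 1 library, turning to 0.452 without D312A replicate 1 and to 1.01 without D312A replicate 3. Genes passed by limma, 28 and 9, were 82 and 23 with no filter, 4 and 0 with all 12 libraries in the fit, 0 and 0 at a mean of at least 3 summits or among genes with spread, and 43 to 70 and 16 to 41 without 1 library. Correlations of same-numbered libraries were 0.241, -0.047 and 0.252, not all above 0.1, and no pairing was assumed, although list names set replicate 1 of each line apart. With the replicate block limma passed 26 and 6 genes, and the paired differences were 1298 summits per library (exact sign-flip p = 0.5), -1.38 percentage points of reference regions kept (exact p = 0.75), 4.60 points of summits away (exact p = 0.25, the smallest possible) and 1 nt of displacement (exact p = 0.25). Of 74 named regions, 55 kept their call with lists of equal length, 39 when merged within 200 nt and 68 within 50 nt, and 0 reversed. With the depth of the lists unknown, no counting error could be set.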
